A study of Mus musculus with 9 samples.

Results

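Colon RNA of 3 mice given dextran sulfate sodium together with carbon dots made from lotus node charcoal (the group CDs) was compared with colon RNA of 3 untreated mice (the group Blank), gene by gene. Members of the comparison were all rows of the deposited read count table, taken by gene name, in the 6 of 9 libraries that carry these 2 group names. The table held 21959 genes, of which 3565 had no read in any library and 14921 passed the expression filter and were tested. All mice are labelled wild type and the tissue is labelled colon. The remaining 3 libraries come from mice given dextran sulfate sodium (DSS) alone (the group Model) and are used here only to place a difference beside DSS alone. No group received carbon dots without DSS. The labels used here give no strain, age, dose, schedule or collection day, and the design text calls the replicates biological.

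DSS is a sulfated polysaccharide that is toxic to the colon lining when given in drinking water. It breaches the epithelium, lets luminal bacteria meet the mucosal immune system and draws in neutrophils and monocytes, and crypt cells then have to rebuild the surface. Carbon dots are nanometre-sized carbon particles. The comparison with untreated colon asks how far the transcript levels of animals given both agents lay from the untreated state, and for which genes.

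Counted reads ran from 13868864 to 16616992 over the 6 libraries, and 16612 to 16914 genes were detected in each. Levels are given in CPM, the read count per 1000000 reads of the library after TMM scaling. A count of 0 allows a level of up to 0.181 to 0.216 CPM, depending on the library (3 reads, for counting error only). The 3 Blank libraries lay close together, and within CDs it was CDs 1 that stood apart. The mean distance to the other libraries of the same group was 58.9, 56.8 and 55.0 log2 units for Blank 1, Blank 2 and Blank 3. It was 83.9, 64.1 and 65.9 for CDs 1, CDs 2 and CDs 3. Over all tested genes the mean distance from the Blank libraries was 151.4 log2 units for CDs 1, 123.6 for CDs 2 and 111.1 for CDs 3. On the first principal component, which held 66.2% of the variance, the Blank libraries lay at -87.1 to -77.5, and CDs 1, CDs 2 and CDs 3 lay at 58.8, 25.2 and 11.7. Results in which CDs 1 or 1 Blank library decides the value are given with and without it.

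A total of 5309 genes (35.6% of those tested) differed from Blank at an adjusted p under 0.05 in edgeR's quasi-likelihood test, and these are called below. Of all genes tested, 3256 (21.8%) were called higher and 2053 (13.8%) lower. The higher side was the more extreme one. At 2-fold or more, 2084 genes were called higher and 650 lower. At 16-fold or more the counts were 116 and 19. The median log2 fold change was 1.23 among genes called higher and -0.71 among genes called lower, and it was 0.0063 over all genes tested. For 8068 genes (54.1%) the Blank and CDs libraries did not overlap. For 4750 genes (31.8%) the 95% interval of the fold change lay wholly within 1.5-fold of the untreated level, so these were measured to be near it. Of these, 263 were also called, as small differences. In 69 genes no Blank library had a read and every CDs library had one, and in 29 the reverse held. The mean level of the group with reads exceeded the limit for a library without reads, averaged over the other group, in 33 of the 69 and 15 of the 29. For the others this limit cannot decide whether the groups differ, because it does not pool the reads of a group. Leaving out Blank 2 lowered the count of genes called lower from 2053 to 1074 and the count called higher from 3256 to 2324.

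**Figure D1:**
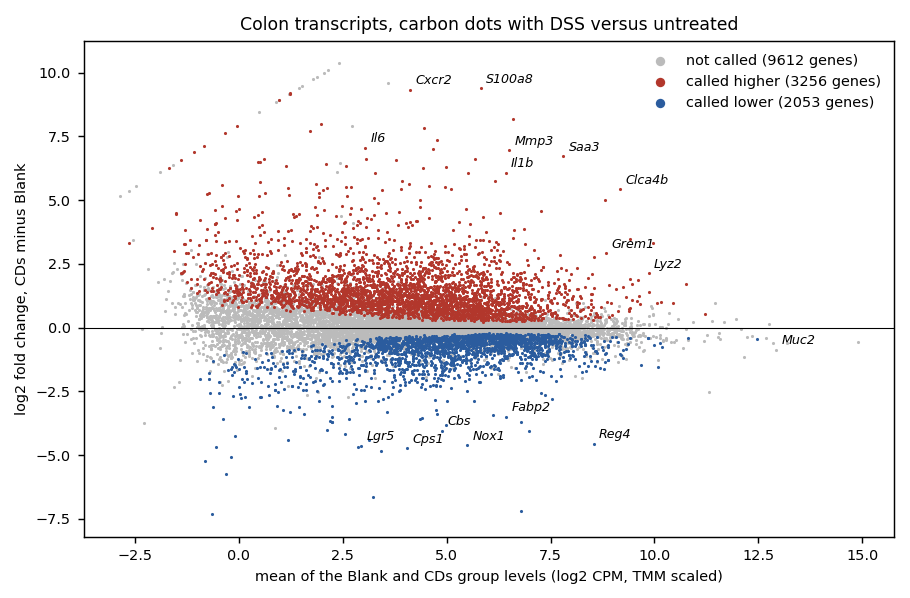
Each point is 1 of the 14921 genes tested, with the mean level of the Blank and CDs groups on the horizontal axis (log2 CPM) and the log2 fold change, CDs minus Blank, on the vertical axis. Red points were called higher (3256 genes), blue points lower (2053) and grey points were not called (9612). The diagonal line of points at the upper left holds genes with no read in any Blank library, whose plotted fold change is no measurement. Labelled genes spread from S100a8 at 9.39 to Cps1 at -4.73.

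The sequences just upstream of 4 of the most raised genes are printed first, because 3 of them are neighbours on 1 chromosome that code for neutrophil-attracting chemokines and all 4 rose from low or undetected levels. They are the promoter windows of Cxcl1, Cxcl2, Cxcl3 and Il6 from RefSeq on GRCm38.p6, each covering the 250 bases before the start of the gene, on the plus strand. Capitals mark a match to the NF-kB motif, which was searched on both strands.
Cxcl1, chr5:90890995-90891244: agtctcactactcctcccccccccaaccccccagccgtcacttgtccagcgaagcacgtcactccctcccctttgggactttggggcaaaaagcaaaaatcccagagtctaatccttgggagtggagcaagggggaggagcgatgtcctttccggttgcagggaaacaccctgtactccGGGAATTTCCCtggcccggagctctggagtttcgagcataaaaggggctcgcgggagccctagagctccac
Cxcl2, chr5:90903649-90903898: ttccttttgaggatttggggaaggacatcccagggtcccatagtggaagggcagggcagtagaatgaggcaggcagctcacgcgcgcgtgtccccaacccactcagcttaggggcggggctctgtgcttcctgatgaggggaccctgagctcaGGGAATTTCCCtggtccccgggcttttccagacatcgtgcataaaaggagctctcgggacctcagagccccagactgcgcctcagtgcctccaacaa
Cxcl3, chr5:90785851-90786100: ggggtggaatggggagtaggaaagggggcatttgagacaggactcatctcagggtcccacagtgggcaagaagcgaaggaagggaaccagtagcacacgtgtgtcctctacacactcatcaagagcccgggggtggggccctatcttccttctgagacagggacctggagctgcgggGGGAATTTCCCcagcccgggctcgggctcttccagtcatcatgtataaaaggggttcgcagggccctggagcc
Il6, chr5:30012864-30013113: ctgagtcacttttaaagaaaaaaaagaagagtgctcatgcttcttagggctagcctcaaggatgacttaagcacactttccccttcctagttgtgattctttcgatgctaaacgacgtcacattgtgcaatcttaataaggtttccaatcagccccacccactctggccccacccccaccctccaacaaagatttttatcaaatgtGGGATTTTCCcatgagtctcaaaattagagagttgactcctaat
The 3 chemokine windows share the same capital letters, in which 2 matches overlap on opposite strands, and the Il6 window holds a different match. Counted over windows that run on to 50 bases after the start, the NF-kB motif was present in 4.51% of all 32851 RefSeq windows, in 9.14% of the 2429 genes called higher that had a window and in 5.54% of the 1643 called lower. Of all 11723 tested genes with a window 6.36% held it. By list, 6 of 19 chemokines, 9 of 21 Toll-like receptor and NF-kB genes and 3 of 14 cytokines held it. It was found in 0 of 20 neutrophil genes, 0 of 15 complement and coagulation genes and 0 of 13 metalloproteinase genes and inhibitors. The AP-1 motif TGANTCA, searched the same way, was present in 7.81% of windows, in 9.26% of genes called higher and in 6.33% of genes called lower. The sterol response element core TCACNCCAC was present in 1.24%, 1.65% and 1.77%, and in 1 of 14 cholesterol pathway genes. Of tested genes with a window, 6.86% held the AP-1 motif and 1.38% the sterol element. A match is a description of letters and not a bound site, and these genes and motifs were chosen after their values were seen.

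Chemokine transcripts were higher in CDs in 20 of the 27 members tested and lower in 1, with a median log2 fold change of 2.79 (3.61 without Blank 1). Cxcl2, a ligand of the neutrophil receptor CXCR2, stood at 0.257, 0.0686 and 0.221 CPM in Blank and at 102, 18.2 and 11.8 CPM in CDs. All 3 CDs libraries were far above Blank, and CDs 1 was well above the others. The log2 fold change was 7.85 (SE 1.43, adjusted p = 0.00385), and 6.30 without CDs 1. Cxcl3, a further CXCR2 ligand, had no read in Blank and 178, 21 and 19 reads in CDs, which places it at least 22.7-fold higher. Cxcl1 and Cxcl5, ligands of the same receptor that were chosen after their values were seen, rose by log2 5.42 (6.66 without Blank 1) and 5.75. Monocyte attractants rose as well. Ccl7 rose from 2.08 ± 0.489 to 33.8 ± 11 CPM (SD, n = 3 each) and Ccl8 from 8.44 ± 3.13 to 115 ± 31.1 CPM. Ccl21a, which guides dendritic cells and naive T cells along lymphatic vessels, stood at 42.5, 30.3 and 45.2 CPM in Blank and at 162, 171 and 173 CPM in CDs. Its CDs libraries were nearly equal, and its log2 fold change was 2.1 (SE 0.16, adjusted p = 0.000271). Ccl25, an epithelial chemokine, was the 1 member called lower, at -0.70 (adjusted p = 0.0282), a call lost without Blank 2, Blank 3, CDs 1 or CDs 2 (adjusted p = 0.0544 to 0.101).

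Neutrophil genes had the highest median of the lists described here. Of 22 members tested, 19 were called higher and none lower. The median log2 fold change was 5.76, and it was 4.95 when the 2 members with no read in Blank were set at their bound. Without CDs 1 it was 4.85. S100a8, a calcium-binding protein that neutrophils carry in bulk (ENSMUSG00000056054, chromosome 3, 90576285 to 90577342, plus strand, as the deposited table gives it with no build named), stood at 0.0643, 0.206 and 0.221 CPM in Blank and 219, 60.1 and 60.0 CPM in CDs. Every CDs library was far above every Blank library, and CDs 1 was the highest. The log2 fold change was 9.39 (SE 1.62, adjusted p = 0.00307), and 8.48 without CDs 1. S100a9, its binding partner, rose by log2 8.18 (7.46 without CDs 1). Cxcr2 itself had 2 reads over the 3 Blank libraries and 1591 over the 3 CDs libraries, a ratio of 757 with an exact 95% interval of 209 to 6258 for counting error only. Csf3r, the receptor for granulocyte colony-stimulating factor, rose from 3.37 ± 1.36 to 85.3 ± 22.4 CPM. Stfa2l1, a stefin-like cysteine protease inhibitor gene, had no read in Blank and was at least 22.7-fold higher. Lrg1 rose by log2 5.17 and Clec4e, a receptor for microbial glycolipids, by 7.01, or by 6.26 without CDs 1 and 9.33 without Blank 1. In bulk tissue a change in the number of cells of a type and a change of RNA per cell cannot be told apart.

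Monocyte and macrophage genes were called higher in 21 of 22 members, with a median of 2.47. The 3 CDs libraries were close, with medians of 2.60, 2.27 and 2.37 above Blank. Cd68, a lysosomal protein of macrophages, read 17.2, 15.6 and 15.1 CPM in Blank and 85.0, 79.8 and 89.7 CPM in CDs. The groups were tight and well apart, with a log2 fold change of 2.41 (SE 0.14, adjusted p = 0.000248). Adgre1, which encodes the macrophage surface protein F4/80, rose by 1.68 and the immunoglobulin receptor gene Fcgr3 by 2.62. Chil3, made by activated macrophages and neutrophils, rose by 7.38 (6.54 without CDs 1). Lyz2, the lysozyme of myeloid cells, had the largest rise among called genes in FPKM, the level per gene length, from 253 ± 44.5 to 1184 ± 246 FPKM (SD, n = 3 each). Cd14, a lipopolysaccharide coreceptor, was the 1 member not called and was chosen after its value was seen, at log2 0.75 (adjusted p = 0.152).

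Of 23 interleukins and other inflammatory cytokines, 18 passed the expression filter. A member with almost no read in Blank could pass it only through the groups given DSS, so it could not be called lower. Among the 18 tested, 15 were called higher and none lower, with a median of 3.18. Without CDs 1 the count was 12 and the median 2.55. Il6 read 0.129, 0.137 and 0.0738 CPM in Blank and 25.5, 11.8 and 11.5 CPM in CDs. The groups lay far apart. Its log2 fold change was 7.05 (SE 0.84, adjusted p = 0.000711). Il1b, the inflammasome-processed interleukin, read 4.12, 0.686 and 2.66 CPM in Blank and 302, 97.1 and 108 CPM in CDs, with a log2 fold change of 6.07 (SE 0.72, adjusted p = 0.000708), which was 5.35 without CDs 1 and 6.68 without Blank 1. Il33, an alarm cytokine of barrier and stromal cells, rose from 7.05 ± 1.43 to 85.6 ± 25.4 CPM. Csf3, the growth factor of neutrophils, had 1 read over the 3 Blank libraries, in Blank 2, and 373 over the 3 CDs libraries, a ratio of 355 with an exact 95% interval of 63.3 to 14060.0 for counting error only. Il17a and Ifng had no read in Blank and reads in every CDs library (32, 4 and 6 for Il17a and 16, 8 and 3 for Ifng), which places them at least 4.41-fold and 2.78-fold higher. The last 2 genes were chosen after their values were seen.

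Receptors and signal relays were called higher as well. Of 21 JAK-STAT3 and SOCS genes, 13 were called higher and none lower, with a median of 1.17. Osmr, the oncostatin M receptor chain, read 20.8, 17.3 and 16.1 CPM in Blank and 144, 120.2 and 104 CPM in CDs. Its log2 fold change was 2.77 (SE 0.18, adjusted p = 0.000248). Il6st, the shared signal chain of the interleukin 6 family, rose by 1.60, and Socs3, the feedback inhibitor induced by STAT3, by 3.85. Of 26 Toll-like receptor and NF-kB genes, 21 were called higher and none lower, with a median of 0.94. Tlr13 and Tlr7, endosomal receptors for microbial RNA, rose by 2.73 and 1.76, and the shared adaptor Myd88 by 1.11. Tlr3, Tlr1, Tlr5, Traf6 and Nfkbiz were not called, and the intervals of 2 members lay within 1.5-fold of untreated.

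Inflammasome genes went in both directions. Of 18 tested, 3 were called higher and 4 lower, against 21.8% and 13.8% of all genes, and the list's median was -0.25. Nlrp3, the sensor found mainly in myeloid cells, rose by 3.96, from 1.29, 1.03 and 0.664 CPM to 24.9, 12.4 and 9.63 CPM, and Mefv, the myeloid sensor pyrin, rose by 3.13. Gsdmd, the pore-forming executor of pyroptosis, was at 223, 223 and 218 CPM in CDs against 137, 119 and 106 CPM in Blank. Its rise of 0.88 (SE 0.15, adjusted p = 0.00281) was small and even. Pycard, the adaptor that links sensors to caspase 1, fell by 1.27 on the log2 scale (adjusted p = 0.00353), a gene chosen after its values were seen. The count of members called lower was 1 or 2 without Blank 1, Blank 2, CDs 1 or CDs 2.

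Of 27 interferon-stimulated genes, 14 were called higher and none lower, with a median of 1.02. Among them were the guanylate-binding proteins, GTPases that attack vacuoles holding microbes. Gbp5 read 15.8, 8.92 and 6.35 CPM in Blank and 132, 84.2 and 62.9 CPM in CDs, a log2 fold change of 3.16 (SE 0.40, adjusted p = 0.000868). Gbp4 rose by 2.23 and Gbp3 by 1.86. The classical antiviral members Mx1, Oas1a and Cmpk2, chosen after their values were seen, stood at 0.22, 0.20 and -0.26 and were not called. The count of members called higher was 8 or 9 without Blank 2, Blank 3, CDs 1 or CDs 2.

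Lymphocyte and antigen presentation genes depended on single libraries, and Blank 1 stood apart from the other Blank libraries in both. The summed level of the 16 antigen presentation genes was 6144 CPM in Blank 1, 2663 in Blank 2 and 2385 in Blank 3, and 8868, 5789 and 4241 CPM in CDs. The level in Blank 1 thus exceeded that in CDs 2 and CDs 3. Of these 16 genes 4 were called higher, near the 21.8% of all genes, namely Nlrc5, Tap2, Psmb8 and Psmb9. The count was 15 of 16 without Blank 1, none without Blank 2, Blank 3 or CDs 2, 1 without CDs 1 and 2 without Model 3. Of 18 T cell and innate lymphocyte genes, 4 were called higher (22.2%), near the 21.8% of all genes. That count was 11 without Blank 1, and it was 1 without Blank 2, Blank 3, Model 3 or CDs 1. The median of 1.55 was 2.47 without Blank 1 and 0.78 without CDs 1. Their summed level was 147, 66.0 and 64.4 CPM in Blank and 292, 136 and 154 CPM in CDs, so Blank 1 lay above CDs 2. Cd4, the coreceptor of helper T cells and also present on some macrophages, read 17.0, 6.72 and 11.6 CPM in Blank and 55.5, 32.3 and 44.3 CPM in CDs, with a log2 fold change of 1.90 (SE 0.33, adjusted p = 0.00322). Of 17 B cell and plasma cell genes, 13 were called higher, and 3 without Blank 2, 4 without Blank 3 and 8 without CDs 1. The median was 1.87, and 1.09 without CDs 1. The summed level of the B cell list was 3803, 2032 and 1807 CPM in Blank and 6569.6, 4122 and 3785 CPM in CDs, so Blank 1 lay just above CDs 3.

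Mast cell and eosinophil genes were mixed, with 6 of 13 called higher (3 without Blank 3) and 1 lower. Hdc, the histamine-making enzyme that neutrophils and basophils also make, rose by 4.50 (3.73 without CDs 1), and Ccr3, the eotaxin receptor of eosinophils, read 0.90, 1.30 and 0.221 CPM in Blank and 17.7, 9.93 and 15.1 CPM in CDs. The member called lower was Kit, which in the colon also marks the pacemaker cells of the muscle wall. Kit read 122, 108 and 131 CPM in Blank and 48.4, 51.9 and 57.2 CPM in CDs, a log2 fold change of -1.20 (SE 0.10, adjusted p = 0.000309). In Model it read 73.1, 80.3 and 74.2 CPM, and the CDs minus Model difference was -0.53 (95% interval -0.77 to -0.30, adjusted p = 0.891). Ano1, a chloride channel of the same pacemaker cells that was chosen after its values were seen, read 289, 321 and 256 CPM in Blank and 66.9, 164 and 149 CPM in CDs (-1.19, adjusted p = 0.0184, and 0.0598 without Blank 2).

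Complement and coagulation genes were called higher in 23 of 26 members, with a median of 2.1 and none lower. C3, the central complement protein, read 120.5, 93.4 and 123 CPM in Blank and 1473, 1296 and 972 CPM in CDs. The Blank libraries were tight and the CDs libraries were all far above them. The log2 fold change was 3.47 (SE 0.32, adjusted p = 0.000323). F10, which encodes coagulation factor X, rose by 5.50, and Vwf, the platelet-binding protein of endothelium, rose by 1.29. Among 21 acute phase and epithelial antimicrobial genes, 8 were called higher and 1 lower. Saa3, an acute phase apolipoprotein, read 2.51, 2.19 and 7.97 CPM in Blank and 592, 511 and 231 CPM in CDs, and its log2 fold change of 6.72 was 7.57 without Blank 3. Hp, haptoglobin, rose by 6.07 and the lipopolysaccharide-binding protein gene Lbp by 2.88. The bactericidal lectins Reg3b and Reg3g, whose counts near-identical family members could share, were not called, at 1.77 (95% interval -1.11 to 4.65) and 1.01 (-1.37 to 3.38), and were chosen after their values were seen.

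**Figure D2:**
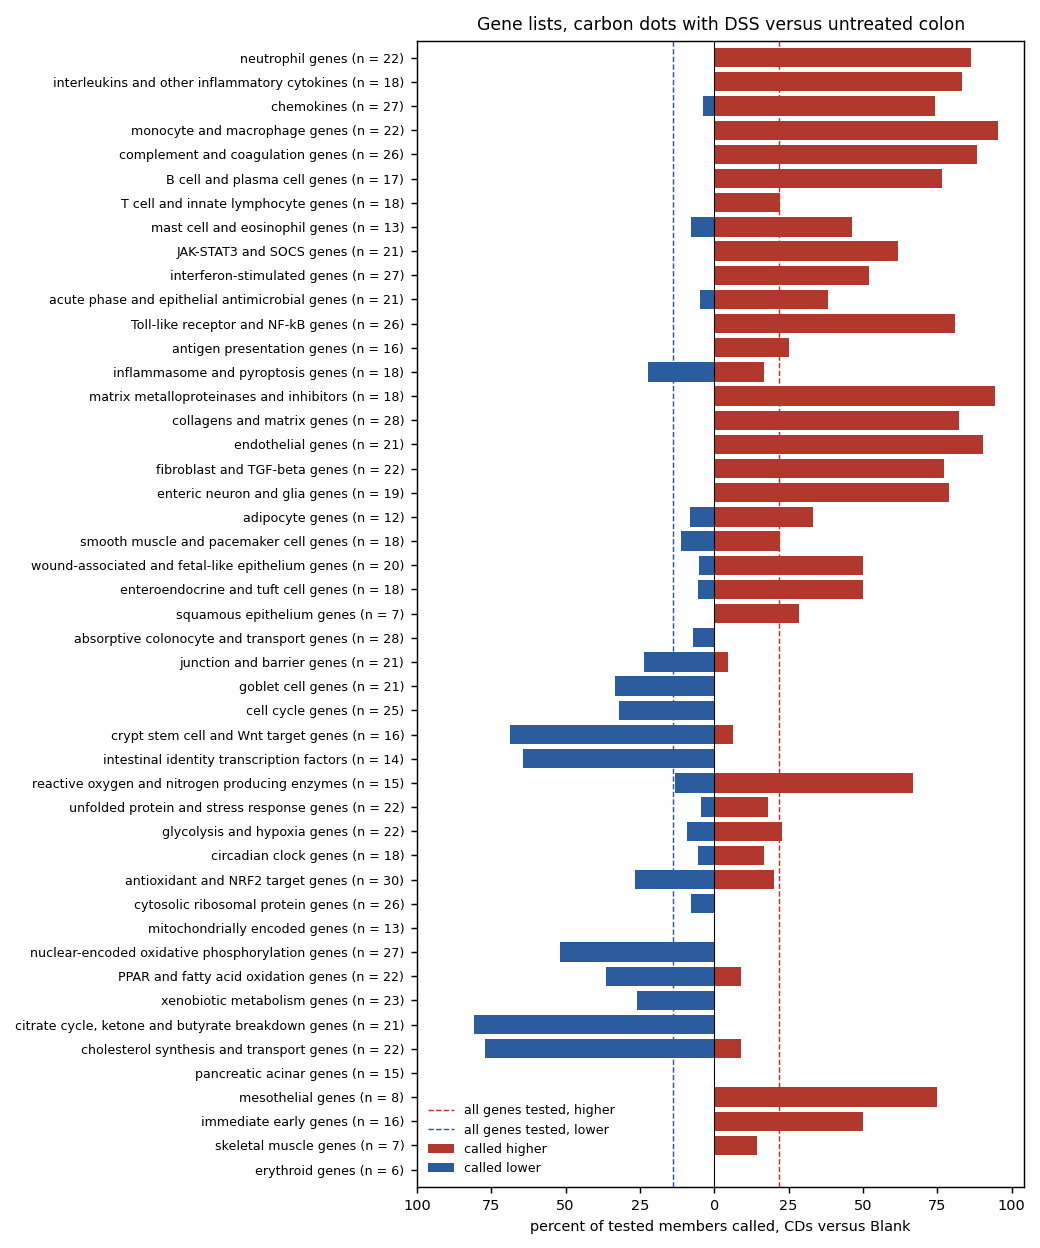
Bars give the percent of tested members of each gene list that were called higher (red, to the right) or lower (blue, to the left) in CDs versus Blank, with the number tested after the name. Dashed lines mark the same shares of all 14921 genes tested, 21.8% higher and 13.8% lower. Neutrophil, macrophage, vessel and matrix lists lie to the right, stem cell, identity factor, citrate cycle and cholesterol lists to the left, and T cell, unfolded protein and clock lists near the dashed lines. The inflammasome list has 3 of 18 members called higher and 4 lower.

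Matrix metalloproteinases and their inhibitors were called higher in 17 of 18 members, with a median of 2.65. Mmp3, the protease stromelysin, read 1.41, 0.892 and 2.07 CPM in Blank and 294, 131 and 118 CPM in CDs. The groups lay far apart and CDs varied within itself, with a log2 fold change of 6.96 (SE 0.55, adjusted p = 0.000271). Mmp10, a further stromelysin, read 0.964, 1.99 and 1.03 CPM in Blank, 93.5, 40.1 and 48.9 CPM in CDs and 117, 350.1 and 273 CPM in Model. Its log2 fold change from Blank was 5.51, and the CDs minus Model difference was -2.02 (95% interval -3.02 to -1.03, adjusted p = 0.891). Timp1, a metalloproteinase inhibitor, rose by 4.29. Of 28 collagens and matrix genes, 23 were called higher and none lower, with a median of 1.41 and library medians of 1.38, 1.39 and 1.33. Col1a2, a chain of fibrillar collagen I, rose from 302 ± 9.90 to 903 ± 132 CPM, Lum by log2 1.85, and Col18a1, whose end fragment is endostatin, by 2.85. Cemip, a hyaluronan-degrading protein, was among the 12 highest genes at 6.63 (5.85 without CDs 1).

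Fibroblast and TGF-beta genes were called higher in 17 of 22 members, with a median of 1.21. Grem1, a BMP antagonist secreted beneath the crypts, read 103, 94.3 and 122 CPM in Blank, 814, 718 and 902 CPM in CDs and 1006, 2258 and 1738 CPM in Model. The CDs libraries were all above Blank and all below Model. The log2 fold change was 2.93 from Blank (SE 0.29, adjusted p = 0.000416) and -1.04 from Model (95% interval -1.65 to -0.43, adjusted p = 0.891). Sfrp1, a secreted Wnt antagonist, rose by 2.35 and Pdpn, podoplanin, by 2.06. Mesothelial genes were called higher in 6 of 8 members, among them Rspo1 at 2.92 and Lrrn4 at 3.20 (3.93 without Blank 3), so this list moved with the fibroblast list, with which it shares Rspo1, and its part in it was not tested. Its summed level, most of it the epithelial keratin Krt19, was 1804, 1537 and 1784 CPM in Blank and 751, 1336 and 1779 CPM in CDs. Adipocyte genes were called higher in 4 of 12 members and lower in 1, with Lpl, lipoprotein lipase, at 1.51 and Pparg, which colon epithelium also makes, at -0.97.

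Endothelial genes were called higher in 19 of 21 members and none was called lower, with a median of 1.29. Selp, P-selectin, which catches rolling leukocytes on the vessel wall, read 1.03, 1.44 and 1.11 CPM in Blank and 34.7, 25.5 and 23.5 CPM in CDs, a log2 fold change of 4.54 (SE 0.34, adjusted p = 0.000271). Madcam1, the gut homing receptor for lymphocytes, read 2.06, 1.44 and 1.33 CPM in Blank and 13.9, 14.4 and 16.0 CPM in CDs. Its CDs libraries were close to each other, and its log2 fold change was 3.19 (SE 0.24). Ackr1, a chemokine-carrying receptor of venules, rose by 2.25. Pecam1, a junction protein of endothelial cells in general, rose by 1.27 and Kdr, a receptor for vascular endothelial growth factor, by 0.72, both chosen after their values were seen.

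Enteric neuron and glia genes were called higher in 15 of 19 members, with a median of 1.06 and none lower. That count was 10 without Blank 1, Blank 2 or CDs 2. Gfap, a filament protein of glia, read 3.47, 2.81 and 3.69 CPM in Blank and 26.5, 22.8 and 15.1 CPM in CDs, with a log2 fold change of 2.69 (SE 0.25). Tac1, the precursor of substance P, rose by 2.51 and the neuronal receptor gene Gfra2 by 0.97. Smooth muscle genes split by library. The summed level of the 18 members was 4681, 5269.8 and 6481 CPM in Blank and 4373, 9515 and 9049 CPM in CDs. CDs 1 lay below every Blank library, while CDs 2 and CDs 3 lay above them. Of the 18 members, 4 were called higher and 2 lower, near the 21.8% and 13.8% of all genes. Without CDs 1, 13 were called higher, against 1 or 2 without Blank 1, Blank 2 or CDs 2. Cald1, caldesmon, rose by 1.21. The part of this muscle gene level in the neuron and pacemaker differences was not tested.

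**Figure D3:**
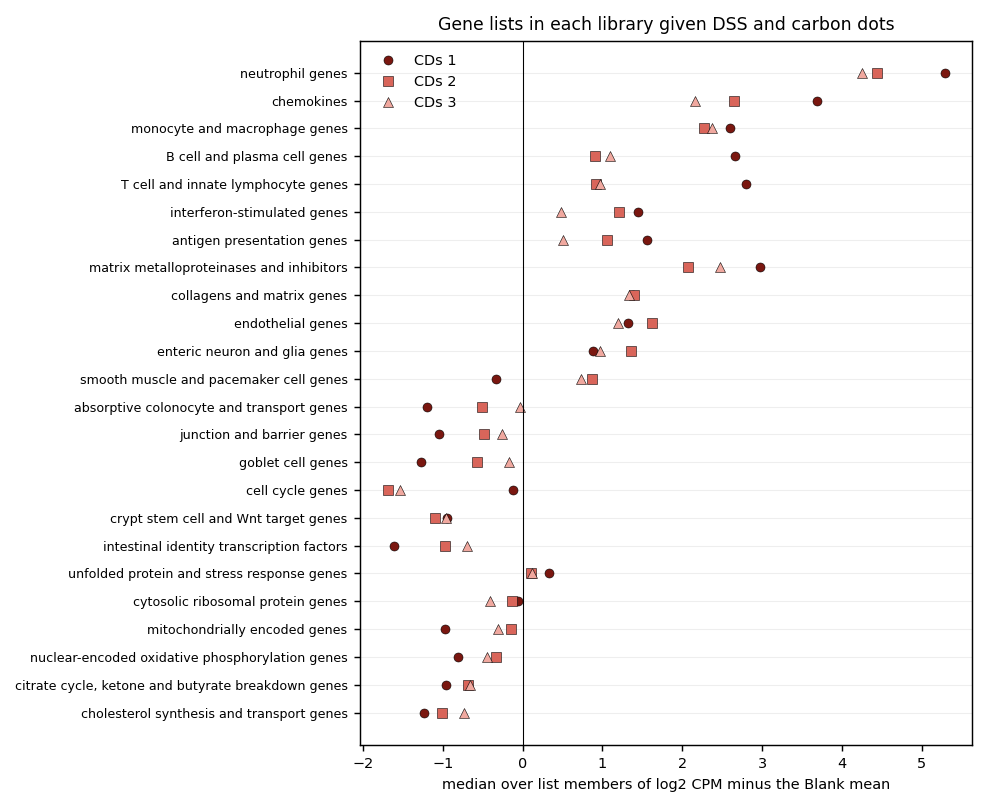
Each symbol is 1 of the 3 libraries given DSS and carbon dots, placed at the median over the members of a list of its log2 CPM minus the mean of the Blank libraries. CDs 1 (circles) stands apart from CDs 2 and CDs 3 for cell cycle genes, where it reads -0.12 against -1.69 and -1.54, for smooth muscle genes and for lymphocyte genes, while the 3 libraries nearly coincide for collagens and stem cell genes.

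Crypt stem cell and Wnt target genes were mostly called lower. Of 16 tested, 11 were called lower and 1 higher, with a median of -1.01 and library medians of -0.95, -1.10 and -0.96. Lgr5, the receptor that marks crypt base stem cells (ENSMUSG00000020140, chromosome 10, 115286216 to 115423685, minus strand, as deposited), read 12.7, 17.8 and 14.1 CPM in Blank and 0.256, 0.658 and 0.882 CPM in CDs. Every CDs library was far below every Blank library. The log2 fold change was -4.63 (SE 0.40, adjusted p = 0.000309). In Model it read 1.52, 0.712 and 1.01 CPM, and the CDs minus Model difference was -0.83 (95% interval -1.82 to 0.17). Slc12a2, a chloride cotransporter of crypt cells, fell from 672 ± 38.6 to 217 ± 29.5 CPM, and Lrig1, a growth factor receptor inhibitor of stem cells, from 159.6 ± 5.34 to 88.7 ± 2.0 CPM. Ascl2 and Myb, transcription factors of crypt cells chosen after their values were seen, stood at -3.24 (-4.19 without CDs 1) and -1.96. Nkd1, a Wnt feedback inhibitor, was the 1 member called higher, at 0.92.

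Cell cycle genes depended on CDs 1. Over 25 members the summed level was 1605, 1971 and 1815 CPM in Blank and 1611, 641 and 670.4 CPM in CDs, so CDs 1 lay at the untreated level and CDs 2 and CDs 3 far below it. With all libraries 8 members were called lower and none higher (median -0.96). Without CDs 1, 20 were called lower, and without any other single Blank or CDs library 2 to 5. Plk1, a mitotic kinase, was low in all 3 CDs libraries, at 33.8, 27.3 and 40.0 CPM against 107, 88.7 and 96.7 CPM in Blank, with a log2 fold change of -1.53 (SE 0.26, adjusted p = 0.00282). Foxm1, the transcription factor of mitotic genes, read 21.4, 7.83 and 8.68 CPM in CDs against 31.8 to 32.4 CPM in Blank, and its fold change of -1.34 was -1.96 without CDs 1. Rrm2 and Mcm2, genes of DNA synthesis chosen after their values were seen, read higher in CDs 1 (78.0 and 46.6 CPM) than in any Blank library and lower in CDs 2 and CDs 3. The B cell list was also highest in CDs 1, and its part in the cell cycle levels was not tested.

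Transcription factors of intestinal identity were mostly lower. Of 14 members, 9 were called lower and none higher, with a median of -1.09. Cdx2, which sets intestinal fate, read 141, 63.7 and 144 CPM in Blank and 32.6, 27.8 and 50.3 CPM in CDs. The groups did not overlap, but Blank 2 lay close to the highest CDs library. Its log2 fold change was -1.65 (SE 0.39, adjusted p = 0.0114). Ehf, an epithelial ETS factor, fell from 647 ± 38.6 to 255 ± 48.7 CPM, and Gata6 by 0.79 on the log2 scale, a call that was lost without Blank 3 (adjusted p = 0.0509). The count of members called lower was 3 to 5 without any single Blank library, CDs 1 or CDs 2, and no member was called higher in any of these.

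Differentiated cells were affected unevenly. Of 21 goblet cell genes, 7 were called lower and none higher (median -0.74). Without CDs 1, 6 were called lower and the median was -0.41. The library medians were -1.28, -0.57 and -0.17 in CDs 1, CDs 2 and CDs 3. The summed level of the list was 35410, 42767 and 42083 CPM in Blank and 19274, 30752 and 41557 CPM in CDs, so CDs 3 lay within the Blank range. The members called were the transcription factors Atoh1, Creb3l1, Spdef and Foxa3, the sugar transferases A4gnt and B3gnt6, and the membrane mucin Muc4. Atoh1, the factor that commits cells to the secretory fate, read 97.0, 73.1 and 100.4 CPM in Blank and 12.5, 23.9 and 24.8 CPM in CDs, a log2 fold change of -2.14 (SE 0.34, adjusted p = 0.00213). A4gnt, an enzyme that caps mucin sugars, was called at -4.84, from 20.6 ± 0.781 to 0.706 ± 0.410 CPM. Creb3l1, a secretory pathway transcription factor, fell from 289 ± 47.4 to 78.1 ± 28.4 CPM. Muc2, the main secreted mucin, read 9473, 6675 and 13981 CPM in Blank and 3963, 4829 and 7704 CPM in CDs and was not called (-0.87, 95% interval -1.77 to 0.03). Reg4, a secretory cell lectin, read 327, 1549 and 260.2 CPM in Blank and 32.5, 26.1 and 32.1 CPM in CDs. Its fold change of -4.56 was -3.27 without Blank 2.

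Absorptive colonocyte and transport genes gave few calls. Of 28 members, 2 were called lower and none higher, below the 13.8% and 21.8% of all genes, and no interval lay within 1.5-fold of the untreated level. The libraries disagreed. The median difference from Blank was -1.20 in CDs 1, -0.50 in CDs 2 and -0.03 in CDs 3, and 7 members were called lower without CDs 3 and 5 without Model 1. Slc26a3, the chloride and bicarbonate exchanger, read 1105, 990.3 and 1197 CPM in Blank and 243, 777 and 1439 CPM in CDs, so CDs 1 lay below and CDs 3 above every Blank library. Guca2b, which encodes the peptide uroguanylin, fell from 8.66 ± 2.81 to 2.80 ± 0.303 CPM. Alpi, intestinal alkaline phosphatase, was called at -2.44 (adjusted p = 0.0289), and -3.12 without CDs 3. That call was lost without Blank 1, Blank 3, CDs 1 or CDs 2 (adjusted p = 0.0655 to 0.0977). Fabp2, a fatty acid carrier of absorptive cells, read 138, 57.1 and 283 CPM in Blank and 6.4, 9.33 and 27.2 CPM in CDs, and its fold change of -3.49 was -2.77 without Blank 3 and -4.33 without CDs 3.

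Junction genes separated by member. Of 21, 5 were called lower and 1 higher. Cldn2, the cation-pore claudin of crypts, read 238, 193 and 185 CPM in Blank and 28.6, 8.55 and 10.4 CPM in CDs, a log2 fold change of -3.69 (SE 0.85, adjusted p = 0.0105) that was -4.44 without CDs 1. Cldn15, a further pore-forming claudin, read 93.4, 66.9 and 106 CPM in Blank and 11.7, 8.85 and 15.6 CPM in CDs (-2.89, adjusted p = 0.00101). Cldn1, a sealing claudin, read 2.06, 5.90 and 2.58 CPM in Blank and 26.2, 21.2 and 14.0 CPM in CDs, and its rise of 2.54 was 3.15 without Blank 2. The scaffold Tjp1 was near the untreated level at 0.01 (95% interval -0.29 to 0.32), a gene chosen after its values were seen. The count called lower was 10 without Model 1, and 2 or 3 without any single Blank library, CDs 1 or CDs 2.

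Some lists named for epithelial cells were higher, and in bulk tissue the cells that made these transcripts cannot be told apart. Of 18 enteroendocrine and tuft cell genes, 9 were called higher and 1 lower (median 0.60). Pyy, a peptide hormone of colon endocrine cells, rose from 51.8 ± 9.37 to 104 ± 21.4 CPM, and Sst, somatostatin, by log2 1.27. The tuft cell factor Pou2f3, chosen after its values were seen, was the member called lower, at -1.57 (adjusted p = 0.0389), a call lost without any single Blank or CDs library (adjusted p = 0.0730 to 0.105). The count called higher was 4 without Blank 1 and 5 without Blank 2. Of 20 wound-associated and fetal-like epithelium genes, 10 were called higher and 1 lower. Ereg, a growth factor of the EGF family that stromal cells also make, read 10.2, 10.6 and 16.2 CPM in Blank, 392, 260.5 and 234 CPM in CDs and 330.3, 1448 and 1101 CPM in Model. Its log2 fold change was 4.58 from Blank (SE 0.54, adjusted p = 0.000690) and -1.70 from Model (95% interval -2.78 to -0.62, adjusted p = 0.891). Clu, clusterin, rose by 1.67 and Ly6a by 1.91. The count called higher was 5 without Blank 2 or Blank 3. Clca4b, a secreted or surface protein of the calcium-activated chloride channel regulator family, was among the largest rises per length, from 8.47 ± 9.82 to 395 ± 318 FPKM. It read 61.4, 9.95 and 7.38 CPM in Blank and 2068, 923 and 392 CPM in CDs, and its log2 fold change of 5.42 was 7.03 without Blank 1 and 4.64 without CDs 1.

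**Figure D4:**
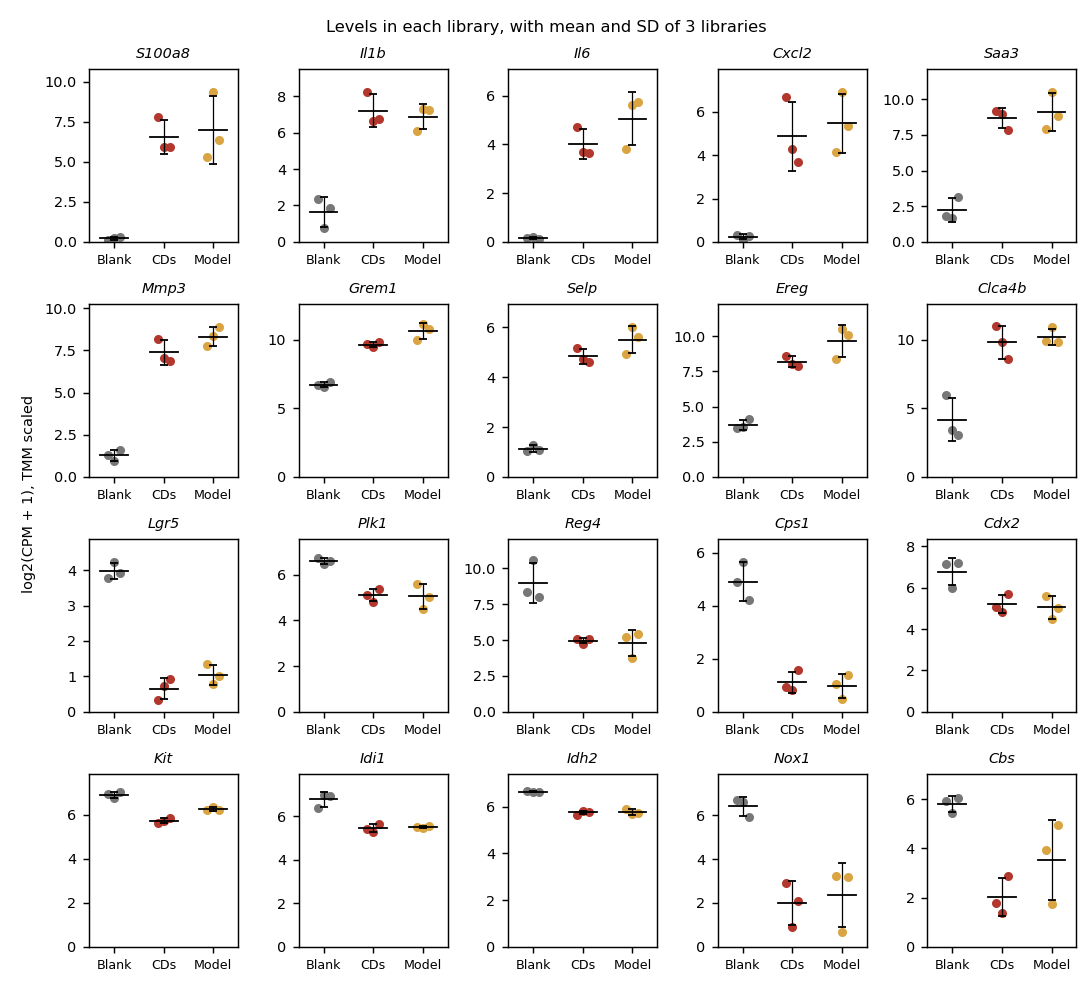
Points are single libraries of Blank (grey), CDs (red) and Model (ochre) for 20 named genes, as log2(CPM + 1) with the group mean (line) and SD (bar, n = 3). All 20 were called in CDs versus Blank, and some were chosen on the condition that these groups do not overlap. Inflammatory and stromal genes such as S100a8 and Mmp3 are high in every CDs library, and Lgr5, Reg4, Cps1 and Idh2 are low in every CDs library, without overlap with Blank.

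Mitochondrial energy genes were lower by small steps. Of 21 citrate cycle, ketone and butyrate breakdown genes, 17 were called lower and none higher, with a median of -0.75 and library medians of -0.96, -0.69 and -0.66. Idh2, mitochondrial isocitrate dehydrogenase, read 99.6, 96.1 and 98.7 CPM in Blank, 49.2, 54.9 and 53.9 CPM in CDs and 59.0, 49.8 and 52.4 CPM in Model. CDs and Blank were tight and apart, with a log2 fold change of -0.90 (SE 0.09, adjusted p = 0.000466), while CDs minus Model was -0.03 (95% interval -0.23 to 0.18). Pdha1, a subunit of pyruvate dehydrogenase, fell by 0.74 on the log2 scale and Acat1, a ketone and butyrate pathway thiolase, by 0.94. Of 27 nuclear-encoded oxidative phosphorylation genes, 14 were called lower and none higher (median -0.51), and 9 without Blank 2. Ndufs1 of complex I, Uqcrc1 of complex III and Atp5a1 of ATP synthase stood at -0.74, -0.64 and -0.69. None of the 13 mitochondrially encoded genes was called (median -0.43). Their share of counted reads was 6.60% to 6.67% in Blank and 3.48%, 5.80% and 5.38% in CDs. Every CDs library was below every Blank library, and the exact two-sided permutation test gave p = 0.1, the smallest value that 3 against 3 allows.

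Fatty acid oxidation genes followed in part, with 8 of 22 called lower and 2 higher. Slc27a2, a fatty acid transporter, read 12.3, 6.86 and 7.01 CPM in Blank and 0.448, 0.419 and 1.18 CPM in CDs (-3.70, and -4.30 without CDs 3). Angptl4, a secreted inhibitor of lipoprotein lipase, rose from 1.62 ± 0.158 to 26.9 ± 8.63 CPM. The count called lower was 5 without Blank 1 or Blank 3. Of 22 glycolysis and hypoxia genes, 5 were called higher and 2 lower, close to the shares over all genes, and 7 had intervals within 1.5-fold of untreated. Pfkfb3, which drives glycolytic flux, rose by 2.60, Slc16a3, a lactate exporter, by 1.88 and Hif1a by 0.92. The core enzyme gene Ldha, chosen after its values were seen, was at 0.03 (95% interval -0.30 to 0.37).

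Cholesterol synthesis genes were lower as a near-complete pathway. Of 22 cholesterol synthesis and transport genes, 17 were called lower and 2 higher, with a median of -0.97. Idi1, an isomerase of the mevalonate pathway, read 83.0, 126 and 123 CPM in Blank and 41.1, 38.1 and 49.6 CPM in CDs, a log2 fold change of -1.37 (SE 0.17, adjusted p = 0.000806). The 2 members called higher were both exporters, Abca1 at 2.05, from 40.3 ± 2.77 to 167 ± 49.7 CPM, and Abcg1 at 1.59, the latter chosen after its values were seen. Scd2, a fatty acid desaturase, was among the largest falls per length, from 290.2 ± 44.8 to 103 ± 24.2 FPKM.

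Enzymes that clear xenobiotics and make or remove oxidants did not move as blocks. Of 23 xenobiotic metabolism genes, 6 were called lower and none higher (median -0.68), and 2 or 3 without Blank 1, Blank 3 or CDs 2 and 10 without Model 1. Sult1a1, a phenol sulfotransferase, read 262, 249 and 276 CPM in Blank and 17.7, 45.0 and 69.8 CPM in CDs (-2.57, adjusted p = 0.00395). Cyp4f14, a fatty acid hydroxylase, fell by 1.64 on the log2 scale. Of 30 antioxidant and NRF2 target genes, 6 were called higher and 8 lower, against 21.8% and 13.8% of all genes. The count called higher was thus near the share of all genes. In 9 members the interval lay within 1.5-fold of untreated. Nqo1, a quinone reductase and NRF2 target, read 56.3, 33.1 and 48.6 CPM in Blank and 11.5, 12.3 and 16.5 CPM in CDs (-1.78, adjusted p = 0.00136). Gstm1 and Gclm, of glutathione conjugation and synthesis, stood at -1.70 and -0.75. Hmox1, heme oxygenase, rose by 3.30, while Nfe2l2, which encodes NRF2, was at -0.02 (95% interval -0.28 to 0.23) and Keap1, its inhibitor, at -0.04 (-0.26 to 0.18). These 3 were chosen after their values were seen.

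Of 15 reactive oxygen and nitrogen producing enzymes, 10 were called higher and 2 lower, against 21.8% and 13.8% of all genes. Cybb and Ncf1, of the phagocyte NADPH oxidase, rose from 40.4 ± 9.61 to 179.8 ± 49.1 CPM and from 9.24 ± 2.32 to 57.2 ± 17.2 CPM. Xdh, xanthine dehydrogenase, rose by log2 1.64. Nox1, the NADPH oxidase of colon epithelium, read 103, 97.5 and 59.4 CPM in Blank and 6.53, 0.897 and 3.31 CPM in CDs. Its log2 fold change was -4.60 (SE 0.86, adjusted p = 0.00444), and -5.41 without CDs 1. Noxa1, an activator of NOX1 chosen after its values were seen, was the other member called lower, at -1.80.

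Further metabolic enzymes filled the low end. Cps1, the entry enzyme of the urea cycle, read 28.6, 49.6 and 17.4 CPM in Blank and 0.896, 0.777 and 1.98 CPM in CDs, a log2 fold change of -4.73 (SE 0.57, adjusted p = 0.000768). Ces1e, a carboxylesterase, read 16.5, 11.6 and 14.1 CPM in Blank, 0.512, 0.478 and 0.662 CPM in CDs and 1.52, 1.19 and 2.95 CPM in Model. Its fold change was -4.67 from Blank and -1.76 from Model (95% interval -2.65 to -0.87, adjusted p = 0.891). Cbs, the enzyme that turns homocysteine into cystathionine, read 59.3, 42.6 and 65.7 CPM in Blank, 2.43, 1.61 and 6.32 CPM in CDs and 14.1, 2.37 and 29.6 CPM in Model. It was called in CDs versus Blank at -4.04 (adjusted p = 0.00654; -4.77 without CDs 3) and not in Model versus Blank at -1.88 (adjusted p = 0.0648), but the CDs minus Model difference of -2.16 (95% interval -3.97 to -0.35, adjusted p = 0.936) did not pass the test. Nxpe2 stood at -4.06, and the glutathione transferase genes Gsta3 and Gstm3 at -3.58 and -3.56. Cyp2c69 stood at -3.71, with the call lost without CDs 2 (adjusted p = 0.0543) and a value of -4.43 without CDs 3.

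Several stress and housekeeping lists had shares near or below those of all genes. Of 26 cytosolic ribosomal protein genes, 2 were called lower, Rpl5 and Rpl3, both calls lost without any single Blank library (adjusted p = 0.0713 to 0.146), and 5 without CDs 1, and 17 had intervals within 1.5-fold of untreated. Of 22 unfolded protein and stress response genes, 4 were called higher and 1 lower, and 10 were bounded within 1.5-fold. Its count called higher was 0 without Blank 2, Blank 3 or CDs 1, 1 without Blank 1 or CDs 2 and 2 without Model 3. Ern2, the stress sensor of mucus cells, was the member called lower at -1.57 (adjusted p = 0.0161), a call lost without CDs 2 (adjusted p = 0.0537). Of 18 clock genes, 3 were called higher and 1 lower, with Nfil3, which immune signals also induce, at 2.34. Immediate early genes lay above the 21.8% of all genes, with 8 of 16 called higher, led by p as Ier3 at 2.02, Junb at 1.04 and Zfp36 at 0.86, and 4 or 5 without Blank 2, Blank 3 or CDs 1.

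The labelled tissue was checked against its markers. All 12 colon epithelium defining genes had reads in all 6 libraries, and their share of counted reads was 1.78% to 2.76% in Blank and 1.16%, 1.56% and 2.12% in CDs (exact two-sided permutation p = 0.2, smallest possible 0.1). Of these, Cdx2 was called lower and 10 were not called, and their intervals leave room for falls. Krt8, a keratin of all colon epithelial cells, was at -0.51 (95% interval -1.21 to 0.19). Markers of other organs were uneven across libraries. Prostate and seminal vesicle genes made up 0.000398%, 0.151% and 0.0175% of reads in Blank 1, 2 and 3 and at most 0.000360% in CDs, and Tgm4, a prostate transglutaminase, read 2.19, 603 and 56.4 CPM in Blank and 1.15, 0.957 and 2.5 CPM in CDs. Its call of -7.19, and that of Azgp1 at -3.65, moved with 1 or 2 Blank libraries. Azgp1 was not called without Blank 2 (-2.41, adjusted p = 0.0599), without CDs 1 (adjusted p = 0.0504) or without CDs 2 (0.0612). Tgm4 was at -4.26 without Blank 2 and not called without CDs 2 (adjusted p = 0.0518). Of 17 squamous genes, 7 passed the expression filter and 2 were called higher, against 21.8% of all genes. They were Dsc3 at 3.80 (2.25 without CDs 1) and Krt14 at 1.99, the latter lost without Blank 1, Blank 2, CDs 2 or CDs 3 (adjusted p = 0.0569 to 0.0988). None of 15 pancreatic acinar genes was called, with shares of 0.0161% to 0.0251% in Blank and 0.0139% to 0.0427% in CDs. In Model versus Blank 13 of the 15 were called higher, with 0.941% of reads in Model 1 and 7.78% in Model 3. None of 6 erythroid genes was called in CDs versus Blank, and 5 of them were called higher in Model versus Blank. Their summed level was 18.3 to 25 CPM in Blank and 26.8, 35.6 and 17.8 CPM in CDs.

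The same tests were run for DSS alone. In Model versus Blank 3654 genes (24.5%) were called higher and 2920 (19.6%) lower, against 3256 and 2053 in CDs versus Blank. Both comparisons share the Blank libraries, so their calls are not independent and a difference in count is no test. The direct test of CDs against Model called 0 genes (smallest adjusted p = 0.891), and DESeq2 called 50. Of the 14921 genes tested, 788 had an unadjusted p under 0.05 in edgeR's test, near the share that no difference would give. Several lists had medians nearer to Blank in CDs than in Model. The citrate cycle list stood at -0.75 and -0.84, the matrix metalloproteinases at 2.65 and 3.59 and collagens at 1.41 and 1.84. Adipocyte genes stood at 0.88 and 2.03 and absorptive genes at -0.44 and -0.75. By library, the Model medians were -0.61, -0.99 and -0.99 for the citrate cycle list and 1.18, 2.23 and 1.87 for collagens. Model 1 was nearer to Blank than every CDs library in both. For metalloproteinases they were 2.74, 3.91 and 3.48 in Model and 2.97, 2.07 and 2.47 in CDs. For absorptive genes they were -0.08, -1.17 and -0.91 in Model and -1.20, -0.50 and -0.03 in CDs. The adipocyte medians by library were 1.18, 1.19 and -0.10 in CDs and 2.45, 1.23 and 2.18 in Model, and pancreatic acinar genes made up 0.941%, 0.00327% and 7.78% of reads in Model 1, 2 and 3, whose part in these medians was not tested. Mesothelial genes had a median farther from Blank in CDs, at 2.81 (3.45 without Blank 3) against 1.58. Antigen presentation genes (0.85 and 0.50) and smooth muscle genes (0.49 and 0.0026) also lay farther in CDs, and both depended on single libraries. B cell genes stood at 1.87 and 1.21 and T cell genes at 1.55 and 1.24, but without CDs 1 the CDs values were 1.09 and 0.78, nearer to Blank than those of Model. No member of these lists passed edgeR's direct test.

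**Figure D5:**
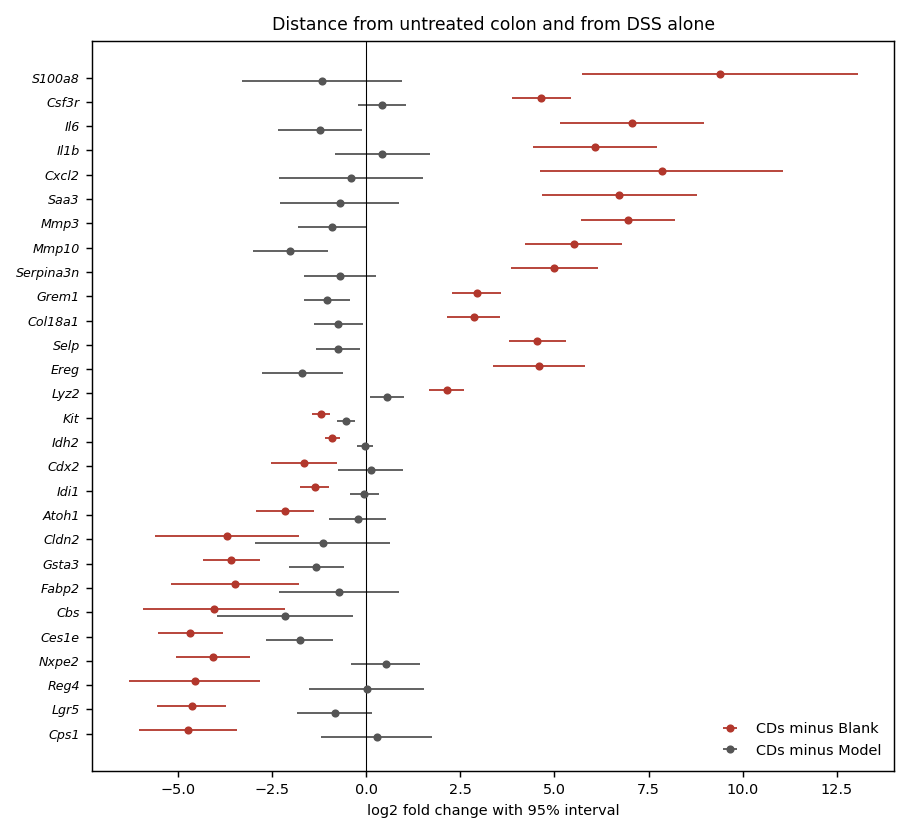
Points give the log2 fold change of 28 named genes and bars the 95% interval, red for CDs minus Blank and grey for CDs minus Model. The genes were chosen among those called in CDs versus Blank, so every red interval lies clear of 0 by selection. The grey values lie nearer to 0, a contrast that this choice favours. Many grey intervals cross 0, and none passed the test after adjustment over all genes.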

How the data were processed

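RNA sequencing of mouse colon was deposited for 9 libraries, 3 each from untreated mice (Blank), mice given DSS (Model) and mice given DSS with carbon dots (CDs). Per the labels' protocols, RNA was taken with Trizol, messenger RNA was captured on poly-T beads and cDNA was made with random primers. No strand-marking step is named, so reads of overlapping antisense genes could not be told apart. The submitters' processing notes list fastp 0.22.0, HISAT2 2.1.0 and HTSeq 0.9.1, and no genome build is named in them. The authors deposited raw read counts and FPKM values per gene in 1 table, per the file headers. The deposited FPKM equalled the count divided by gene length and library total in 100% of values to a tolerance of 1e-06.

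Counts of all 9 libraries were fitted with edgeR 4.0.16 (R 4.3.3) by the quasi-likelihood test with TMM scaling and 1 coefficient per group, so Model libraries entered the estimate of spread. Genes were kept by edgeR's expression filter, p-values were adjusted by the Benjamini-Hochberg method over all genes tested, and genes with an adjusted p under 0.05 were called. A gene with almost no read in Blank could pass the filter only through the CDs or Model libraries. Levels are CPM with TMM scaling. The script was tested on simulated counts. DESeq2 1.42.0 and limma 3.58.1 on log2(FPKM + 1) were alternatives, as were other scalings, filters and leaving out each library.

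Named genes are, among called genes with an established symbol, groups that do not overlap and a mean of at least 5 FPKM in CDs or Blank, the 12 highest and 12 lowest fold changes and the 10 largest rises and 10 largest falls in FPKM. To these were added the 3 called members with the smallest p of each of 50 gene lists, fewer where fewer were called, and 12 colon-defining genes. A few genes that meet these rules are not reported here. Lists, members and rules were chosen with earlier results of these data known. List genes with an absent or duplicated symbol, 8 in all, were left out. Promoter sequences are from RefSeq. Per-library depth is 13868864 to 19940300 reads, and with 3 libraries a group the precision of single genes is limited.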

Additional observations from a re-analysis of the deposited data

How the results depend on the processing

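The number of genes called (5309) ranged from 3398 to 5540 when each library was left out in turn, with 2324 to 3311 higher and 1074 to 2229 lower, and list members called lower (133) from 88 to 159. Without Blank 2 and Blank 3 together, which leaves 1 untreated library assumed to vary like the other groups, 465 genes were called, 357 higher and 108 lower (76.8% higher against 61.3%), 449 of them at 2-fold or more. In that setting 2281 genes were bounded within 1.5-fold, 70 list members were called higher and 19 lower, and Model versus Blank gave 1536 calls. Without CDs 1, Model 1 and Model 3, which leaves 1 Model library, CDs versus Model gave 1241 calls instead of 0, and DESeq2 gave 50. Calls at 2-fold or more numbered 2734, against 1499 with limma on log2(FPKM + 1), 1436 without its filter and 754 with edgeR's test against 2-fold. The 4750 genes bounded within 1.5-fold became 10794 with limma without a filter, 977 with a narrower bound and 8340 with a 2-fold bound. The log2 fold change of Slc26a3, not called, ranged from -1.10 without CDs 3 to 0.0136 without CDs 1 and was 0.0122 without CDs 1, Model 1 and Model 3, and that of Car1, not called, from -0.0673 without CDs 3 to 1.15 without Blank 3.

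With the replicate number as a block, 4475 genes were called, 2974 higher and 1501 lower, and 9 of 162 named calls were lost. Same-numbered Blank and CDs libraries correlated at 0.175, 0.119 and 0.0635 in their deviations. Blank 1 and Blank 2 correlated best with the CDs library of their own number, and Blank 3 with CDs 2 (0.112). The labels name no shared source, and these values do not settle whether same-numbered libraries share one. Of the 162 named calls, 103 were lost without Blank 2 and Blank 3, 136 were kept in each of the 21 other settings, and 25 were lost when some single library was left out. DESeq2 called 6221 genes, 3502 higher and 2719 lower. With 3 libraries a group, small changes of weakly expressed genes were not detectable.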

Other observations

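Several abundant transcripts outside the gene groups described also rose in CDs against Blank, in edgeR's quasi-likelihood test over all genes. Serpina3n, a secreted serine protease inhibitor, rose from 12.7 ± 0.46 to 436 ± 201 FPKM (SD, n = 3 each), which is 5.0 on the log2 scale (SE 0.50, adjusted p = 0.000466). Ifitm3, an interferon-inducible membrane protein, rose from 73.4 ± 6.90 to 409 ± 111 FPKM, and Apoe, the lipid carrier apolipoprotein E, from 149 ± 26.1 to 521 ± 67.3 FPKM. Tmsb4x, an actin-binding peptide, rose from 328 ± 40.9 to 833 ± 193 FPKM, and Plac8 from 341 ± 34.4 to 681 ± 55.7 FPKM. These 5 genes were chosen among called genes whose Blank and CDs libraries do not overlap, so that separation is no result. Their calls were kept when each library was left out in turn.

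Among abundant transcripts that fell, Cd24a, a glycosylated surface protein of epithelial and immune cells, went from 211 ± 12.3 to 79.3 ± 7.29 FPKM (log2 fold change -1.49, SE 0.12, adjusted p = 0.000271), and H1f0, a linker histone, from 216 ± 21.2 to 86.2 ± 16.8 FPKM. Fam3d, a secreted gut protein, fell from 748 ± 52.9 to 283 ± 98.7 FPKM, a call lost without CDs 2 (adjusted p = 0.0535). Adh1, an alcohol dehydrogenase, measured 217 ± 31.7 FPKM in Blank and 68.4 ± 41.3 FPKM in CDs, and its call was lost without CDs 2 (adjusted p = 0.0629) and without each Blank library (0.0632 to 0.0974).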
